A study of Mus musculus with 16 samples.

Results

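The injury response of muscle macrophages from Glud1-deficient mice was measured by RNA sequencing, by comparing cells of CTX-injected muscle with cells of normal muscle. The libraries were chosen by their labels alone: the 4 of CTX-injected and the 4 of normal muscle whose genotype is given as GLUD1 KO, 8 of the 16 libraries of the series. Every gene that passed a filter on low counts was tested, 13649 of the 24421 gene symbols counted. Cells had been sorted from muscle as F4/80-positive, F4/80 being a surface protein of mouse macrophages encoded by Adgre1. The labels name the injected agent only as CTX, the usual abbreviation of cardiotoxin, a snake venom peptide that destroys muscle fibres and leaves their stem cells able to rebuild the tissue. The design text places the injured samples at the time of greatest damage. The study asked how inflammatory (M1), alternative (M2) and wound healing genes behave in macrophages with and without Glud1. The other 8 libraries, 4 of CTX-injected and 4 of normal muscle of WT mice, shared the statistical model and serve below to show where the response of GLUD1 KO macrophages differed. The deleted allele, the cells in which it was deleted, the strain, the age, and the time after injection are not given in the sources used here, nor is it said whether each library came from a separate mouse. The p-values below therefore weigh group differences against the spread among these libraries, which may be partly technical and need not be that among mice.

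Healthy muscle holds resident macrophages that survey the tissue. When fibres die, blood monocytes enter, take up the debris and release inflammatory cytokines and chemokines, and they later make matrix proteins and growth factors that act on muscle stem cells. Glud1 encodes glutamate dehydrogenase, the mitochondrial enzyme that turns glutamate into 2-oxoglutarate for the tricarboxylic acid (TCA) cycle. Glutamine synthetase, encoded by Glul, uses the same glutamate to make glutamine.

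Values below are in CPM, the usual unit that brings the read counts of all libraries to a common depth, here scaled for library composition with edgeR's TMM factors. CPM does not correct for gene length, so the member of a list called highest in CPM has the most reads. A range joined by a dash is the lowest to the highest of its 4 libraries. Single values are listed in the order of libraries 1, 2, 3 and 5 of normal muscle and 1, 2, 3 and 4 of CTX-injected muscle, all GLUD1 KO unless WT is named. A change is the log2 of CTX-injected over normal muscle, so that 1 on this scale is a 2-fold rise, and "rose" or "fell" marks an edgeR quasi-likelihood adjusted p under 0.05, adjusted over all genes tested. The libraries held 17051892 to 22521092 counts in normal and 21222870 to 22230960 in CTX-injected muscle. Reads were found for 16118 to 16814 genes per library in normal muscle and for 14465 to 14742 in CTX-injected muscle, where the 100 most abundant genes took 29.9% to 30.8% of all counts against 25.1% to 26.3%. The first principal component over these 8 libraries held 81.3% of the variance and separated injured from normal muscle. Among the normal libraries, library 3 lay nearest to the injured side, and library 5 was from a female mouse by Xist (208 CPM, against at most 0.128 CPM in the other 7), as were 2 of the 4 WT normal libraries. Library 5 also had the fewest counts (17051892) and the largest median deviation from its group (0.289 on the log2 scale, against 0.221 to 0.252). Its sex therefore cannot be told apart from other traits of that library. Libraries of normal muscle differed more among themselves than those of CTX-injected muscle, with a median SD per gene of 0.28 against 0.17 on the log2 scale.

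Adgre1, the gene of the sorting marker, was read in every library, with 509 to 572 CPM before and 676 to 1167 CPM after injury. The macrophage growth factor receptor gene Csf1r stood at 2562, 2907, 2972 and 3006 CPM in normal muscle and at 1625, 1742, 1664 and 1582 CPM after injury. Both macrophage genes were well read in all 8 libraries, and Csf1r was lower in each injured one (log2 change -0.79, SE 0.11, edgeR adjusted p = 1.16e-05). The bulk libraries cannot tell fewer cells of a type apart from less RNA per cell, which holds for every gene below.

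Glud1 lies on chromosome 14 at 34310727 to 34345265 (plus strand) in GRCm38. Its transcript was read at 240.0, 238, 272 and 209.8 CPM in normal muscle and 327, 334, 351 and 342 CPM in CTX-injected muscle of GLUD1 KO mice. The groups did not overlap, and the gene rose (log2 change 0.50, SE 0.10, edgeR adjusted p = 0.000406; exact two-sided permutation p = 0.0286, the smallest possible with 4 against 4 libraries). The change was 0.54 in WT, where the transcript was read at 219–292 CPM in normal and 348–391 CPM in CTX-injected muscle. Mean levels in normal and CTX-injected muscle were 240 and 339 CPM in GLUD1 KO and 256 and 373 CPM in WT. With library totals as the only scaling the KO change turned to -0.11, so its direction depends on the scaling. These are reads over all exons, and which exons were removed is unknown here, so the values are no test of the genotype labels.

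Injury moved most of the transcriptome of GLUD1 KO macrophages. Of 13649 genes, 10040 changed (73.6%), of which 4549 rose (33.3% of all) and 5491 fell (40.2%). Falls were larger than rises: 1728 genes (12.7%) rose and 3985 (29.2%) fell by at least 2-fold, 353 rose and 1789 fell by a log2 change between 2 and 4, and 12 rose and 149 fell by one beyond 6. In 9122 genes (66.8%) the 4 injured and the 4 normal libraries did not overlap. Most genes named from the lists below were picked for a small p, so a lack of overlap in them is no further support. The median change of all genes was -0.16, and it shifted by -0.61 to -0.77 with library totals as the only scaling. That scaling called 1920 genes up and 8398 down, so rising genes made up 18.6% of the calls in place of 45.3%. The number of rising genes in each list, the cell marker lists aside, is therefore given below under both scalings. With library totals only, it is to be read against these 1920 and 8398 calls among all genes and the median of -0.77. List medians that turned negative below still lay above that median, by 0.23 (cholesterol synthesis) to 0.74 (matrix proteases and inhibitors). A total of 92 falling genes had no read in any injured library and 2 rising genes had none in any normal library, and their fitted changes depend on the prior count of the model.

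**Figure D1:**
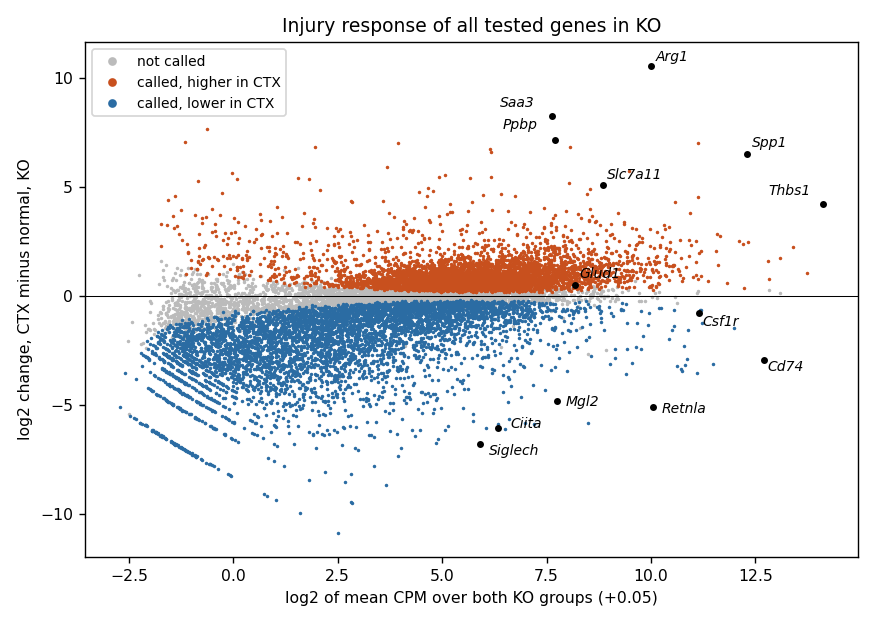
Log2 change with injury (y) against the log2 of the mean CPM of both GLUD1 KO groups plus 0.05 (x) for the 13649 tested genes. Orange points rose and blue points fell by edgeR's adjusted p, grey points were not called, and black points are labelled genes named in the text. Arg1 and Spp1 stand out above, Siglech, Ciita and Retnla below, and the largest falls lie among genes of low expression.

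The largest rise was in Arg1, which encodes the arginase of alternatively activated macrophages and splits arginine into ornithine and urea. It lies on chromosome 10 at 24915221 to 24927484 (minus strand). Arg1 was almost silent in normal muscle, at 1.46, 1.85, 0.683 and 1.27 CPM, and reached 3417, 2252, 1418 and 1139 CPM after injury (log2 change 10.59, SE 0.48, edgeR adjusted p = 2.79e-10). Injured libraries 1 and 2 were the highest. The leading genes of both directions were chosen among called genes whose groups did not overlap. The acute-phase gene Saa3 went from 2.64, 1.55, 0.512 and 0.283 to 508, 882, 96.7 and 83.6 CPM (log2 change 8.27, SE 1.39, edgeR adjusted p = 6.16e-05), with the same 2 injured libraries on top. Its change was 8.88 without normal library 1 and 7.495 without injured library 2. Ptges, which encodes the inducible prostaglandin E synthase, shared this split within the injured group, at 184, 255, 61.7 and 62.4 CPM against 0.566–2.08 CPM in normal muscle (log2 change 6.75, SE 0.75, edgeR adjusted p = 8.81e-07).

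Spp1 encodes osteopontin, a secreted matrix protein that binds integrins. It rose from 52.7, 91.8, 121 and 171 to 9676, 8389.5, 11527 and 10583 CPM (log2 change 6.53, SE 0.64, edgeR adjusted p = 2.11e-07) and reached similar levels in the 4 injured libraries. Pdpn, encoding the membrane glycoprotein podoplanin, rose from 2.93, 3.27, 8.19 and 4.20 to 533, 516, 568 and 518 CPM (log2 change 6.85, SE 0.45, edgeR adjusted p = 3.87e-09). Timp1, an inhibitor of matrix metalloproteinases, went from 1.09, 0.628, 2.56 and 1.56 to 162, 142, 129.9 and 132 CPM (log2 change 6.62, SE 0.46, edgeR adjusted p = 7.40e-09). The neutrophil-attracting chemokine genes Ppbp (1.84–3.64 to 263–551 CPM, log2 7.18) and Cxcl3 (log2 7.01) were among the leaders too. Cxcl3 stood at 5.94, 7.94, 104 and 20.5 CPM in normal muscle, where library 3 was the highest by far, and at 6028, 4984, 3369 and 3416 CPM after injury. Without normal library 3 its change was 8.63. Irg1, also named Acod1, makes the antibacterial metabolite itaconate from a TCA cycle intermediate and rose from 17.03, 18.9, 43.2 and 25.9 to 1612, 2310.1, 803 and 896 CPM (log2 5.74). The secreted protein gene Dmkn closed the list (0.761–2.56 to 53.8–74.8 CPM, log2 5.58). Saa3 had the largest edgeR adjusted p of the 10 (6.16e-05), and 6 more weakly expressed genes rose more steeply than Dmkn.

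**Figure D2:**
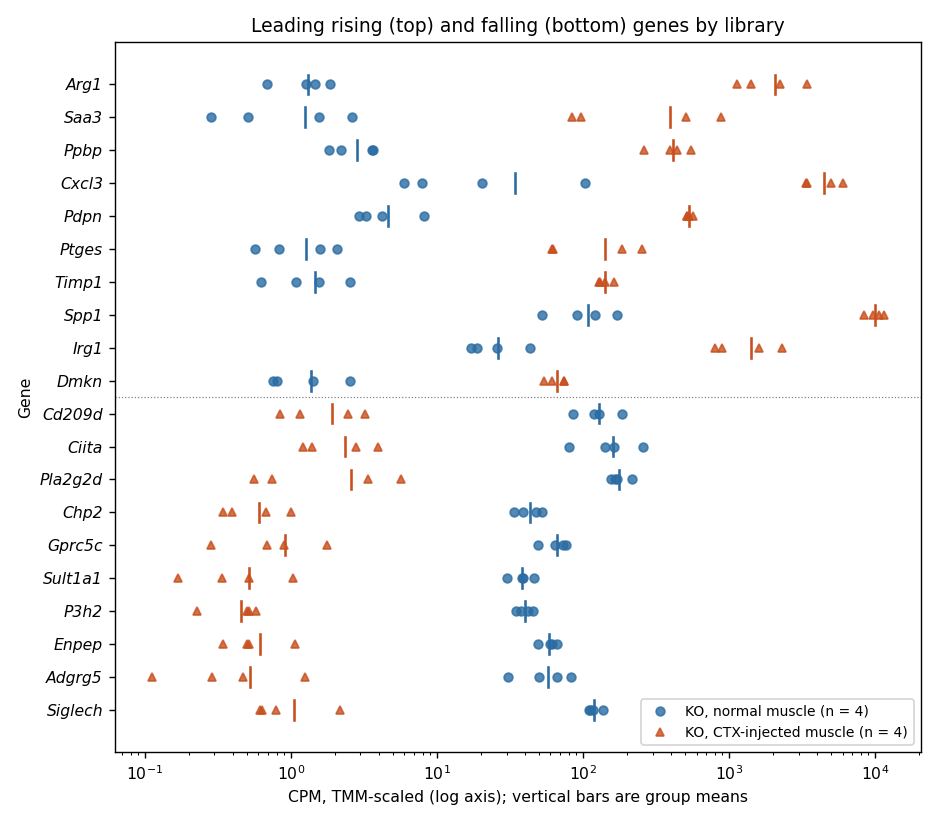
CPM of the 10 leading rising genes (top) and 10 leading falling genes (bottom) in each GLUD1 KO library, on a log axis, with vertical bars at the group means (n = 4 each). Genes were chosen with no overlap between normal (circles) and CTX-injected muscle (triangles) as a condition, and Arg1, Saa3, Ptges and Irg1 spread over the injured libraries.

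The largest falls among well-expressed genes were mostly in surface receptors and enzymes read in the sorted cells of normal muscle. From which cell type these transcripts came was not tested. Siglech, a sialic acid-binding lectin, was at 138, 118, 112 and 110.3 CPM in normal and 0.634, 0.792, 0.615 and 2.18 CPM in CTX-injected muscle (log2 change -6.79, SE 0.48, edgeR adjusted p = 7.88e-09), and its change was -7.44 without injured library 4. Adgrg5, an adhesion G protein-coupled receptor, went from 49.96, 30.6, 66.9 and 82.8 to 0.288, 1.25, 0.112 and 0.468 CPM (log2 change -6.75, SE 1.03, edgeR adjusted p = 2.25e-05; -7.58 without injured library 2). Enpep, which encodes the aminopeptidase that trims angiotensin, fell from 49.1–66.1 to 0.346–1.08 CPM (log2 -6.58), and P3h2, a collagen prolyl hydroxylase, from 34.6–45.7 to 0.226–0.576 CPM (log2 -6.43). Further falls were found in the sulfotransferase gene Sult1a1 (log2 -6.18, -6.79 without injured library 4), the orphan receptor gene Gprc5c (log2 -6.15), the calcineurin-like gene Chp2 (log2 -6.14), the secreted phospholipase gene Pla2g2d (log2 -6.09, -6.79 without injured library 2) and the lectin gene Cd209d (log2 -6.06). Ciita, the master activator of MHC class II genes, completed the list, going from 257, 141, 80.1 and 163 to 1.21, 3.96, 1.40 and 2.81 CPM (log2 change -6.09, SE 0.46, edgeR adjusted p = 1.57e-08). Among these 10 falls the edgeR adjusted p was largest for Adgrg5 (2.25e-05, given above), and 134 more weakly expressed genes dropped further than Cd209d.

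On a scale that divides CPM by exon length in kilobases, which allows genes to be ranked by level, the makeup of the most abundant transcripts changed. Cd74, the invariant chain that loads MHC class II molecules, held the first rank in normal muscle with a mean level of 7015 CPM per kilobase and fell to 898 after injury. Apoe, an apolipoprotein, went from 2803 to 1007, the secreted protein gene Retnla from 3449 to 100.4 and the MHC class II gene H2-Ab1 from 2007 to 233. Places among the 10 most abundant transcripts of injured muscle were taken by Spp1 (66.2 to 6095 CPM per kilobase), the matrix glycoprotein gene Thbs1 (296 to 5569), the ferritin heavy chain gene Fth1 (1072 to 5169), the endotoxin co-receptor gene Cd14 (874 to 4606) and the lysosomal activator gene Psap (1951 to 3325). The ferritin light chain gene Ftl1 was first in injured muscle (2616 to 7993), followed by the actin gene Actb (3319 to 6816). The lysozyme gene Lyz2 was near the top in both conditions (4978 and 6095). It stood at 11292, 5677, 5397 and 3840.0 CPM in normal and 7686, 9379.7, 7696 and 7324 CPM in CTX-injected muscle, overlapped between them and was not called (log2 change 0.29, SE 0.27, edgeR adjusted p = 0.332; 0.69 and called without normal library 1).

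Chemokine genes moved in both directions. Of 12 C-X-C chemokine genes tested, 7 rose and 2 fell (median change 2.50; 7 and 4 with library totals only), and of 12 C-C chemokine genes 7 rose and 2 fell (median 1.13; 5 and 3 with library totals only), against 33.3% up and 40.2% down among all genes. The neutrophil chemokine gene Cxcl2 was the highest in CPM of the first group, at 483, 309.9, 1177 and 974.6 CPM in normal and 6169.6, 5952, 4695 and 4615 CPM in CTX-injected muscle (log2 change 2.86, SE 0.42, edgeR adjusted p = 1.72e-05), with normal libraries 3 and 5 above 1 and 2. Pf4, platelet factor 4, rose from 210.3–293 to 1042–1517 CPM. Cxcl12, which retains stem cells and lymphocytes, fell from 34.1–57.6 to 3.63–6.08 CPM (log2 -3.19). Cxcl9, an interferon-gamma-induced T cell attractant, stood at 30.8, 17.2, 11.4 and 9.25 and 0.461, 0.792, 0.392 and 13.8 CPM. Its groups overlapped through injured library 4, without which the change was -4.95 in place of -2.13, and its call (edgeR adjusted p = 0.0315) was lost when normal library 1 or injured library 1, 2 or 3 was left out. Among C-C chemokines, Ccl6 was the highest in CPM, rising from 708, 828, 633 and 1216 to 5600.2, 4807, 6192 and 5959 CPM (log2 change 2.74, SE 0.24, edgeR adjusted p = 7.07e-08), and Ccl9 rose from 601–747 to 3175–4112 CPM. Both attract monocytes and other myeloid cells and did not overlap between the groups. Ccl22 (57.2–83.1 to 2.99–22.5 CPM, log2 -2.57) and Ccl17 (2.30–4.90 to 0.736–1.71 CPM, log2 -1.88), which signal to T cells through CCR4, fell.

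Most genes of the interleukin-1 pathway rose, its natural antagonist by the largest amount. Of 16 tested, 11 rose and 1 fell (median 1.43; 9 and 4 with library totals only). Il1b was read in normal muscle at 819.8, 481, 965 and 862 CPM, and stood at 2798, 3129.8, 2318 and 2163 CPM after injury (log2 change 1.74, SE 0.32, edgeR adjusted p = 0.000155). Il1rn, whose product blocks the receptor, went from 80.3, 61.1, 239.6 and 194 to 3034, 2974, 2983 and 2645 CPM (log2 change 4.34, SE 0.49, edgeR adjusted p = 9.18e-07). Neither gene overlapped between the groups. The co-receptor gene Il1rap rose (13.6–22.1 to 65.7–88.9 CPM), and the DNA-sensing inflammasome gene Aim2 fell (log2 -1.06). In the NF-kB list of subunits and feedback inhibitors, 11 of 16 rose and 1 fell, or 5 and 2 with library totals only. Nfkbia, the inhibitor that holds NF-kB in the cytoplasm, rose from 678–995 to 2058–2265 CPM, and Tnip1, an inhibitor of the same pathway, from 54.6–100.2 to 378–479 CPM. Zfp36, which destabilises cytokine mRNA, fell (2716–4102 to 1373–1489 CPM, log2 -1.24).

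Prostaglandin and leukotriene genes moved both ways. Of 17 tested, 7 rose and 8 fell, both near the shares of all genes (33.3% and 40.2%). With library totals only 6 rose and 8 fell, and the median turned from 0.31 to -0.30. Ptgs2, the inducible cyclooxygenase that starts prostaglandin synthesis, went from 287, 144, 330.0 and 218 to 2890.4, 2512, 1943 and 1931 CPM (log2 change 3.24, SE 0.35, edgeR adjusted p = 6.59e-07), and Ptges, the next step to prostaglandin E2, rose as given above. Hpgd, which inactivates prostaglandin E2, fell from 218, 203, 169.9 and 165 to 2.65, 4.36, 2.74 and 5.04 CPM (log2 change -5.67, SE 0.36, edgeR adjusted p = 2.82e-09). The constitutive cyclooxygenase gene Ptgs1 fell as well (40.0–76.0 to 6.15–8.83 CPM, log2 -2.87). Ptgs2, Hpgd and Ptgs1 did not overlap between the groups.

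Of 14 toll-like receptor genes, 8 rose and 4 fell, or 5 and 6 with library totals only. Cd14, the endotoxin co-receptor, was at 970.4, 704, 2868 and 1513 CPM in normal muscle, with library 3 highest, and at 7678, 8848, 7833 and 7551 CPM after injury (log2 change 2.40, SE 0.36, edgeR adjusted p = 1.88e-05). The adaptor gene Myd88 (log2 0.94) and the lipopeptide receptor gene Tlr6 (log2 1.58) rose, while the double-stranded RNA receptor gene Tlr3 (log2 -2.15) and Unc93b1 (log2 -0.69), which carries nucleic acid receptors to the endosome, fell. Interferon response genes gave few calls, with 8 up and 1 down of 22, and 4 and 4 with library totals only, where their median turned from 0.31 to -0.30. The antiviral gene Oas1a rose from 38.9–59.9 to 191–239 CPM and the restriction factor gene Bst2 from 51.7–78.3 to 159–225 CPM. Irf7, the regulator of type I interferon genes, was at 221, 159, 122 and 145 and 611, 596, 328 and 339 CPM (log2 1.53), with injured libraries 1 and 2 above 3 and 4, and Stat2 fell (log2 -0.75).

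The lists of M1 and M2 genes, which were compiled here and are not the study's own, each moved both ways. Of 22 M1 genes tested, 12 rose and 4 fell (median 0.65), or 9 and 8 with library totals only. Besides Il1b and Ptgs2, the formyl peptide receptor gene Fpr2 rose from 5.86, 9.13, 8.53 and 4.39 to 42.7, 59.9, 34.0 and 39.9 CPM (log2 change 2.65, SE 0.44, edgeR adjusted p = 5.53e-05). Ccr7, the receptor that guides cells to lymph nodes, fell from 175, 117, 363 and 148 to 25.3, 52.8, 27.6 and 58.1 CPM (log2 change -2.29, SE 0.35, edgeR adjusted p = 2.48e-05), and Gpr18 fell too (9.13–19.7 to 4.81–7.01 CPM). The groups of these genes did not overlap. Of 24 M2 genes, 10 rose and 10 fell (7 and 13 with library totals only), against 33.3% and 40.2% of all genes. Arg1 was the extreme on one side, followed by the scavenger receptor gene Msr1 (116, 106, 149 and 106 to 1167, 1203, 1294 and 1126 CPM, log2 change 3.32, SE 0.20, edgeR adjusted p = 1.80e-09). Tgm2, a protein-crosslinking transglutaminase, rose from 206–421 to 2079–2771 CPM. On the other side stood Retnla (1312, 1602, 1762 and 3588 to 49.2, 28.8, 82.3 and 80.1 CPM, log2 change -5.10, SE 0.48, edgeR adjusted p = 1.50e-07) and the lectin genes Mgl2 (333–531 to 8.60–20.8 CPM, log2 -4.84) and Cd209a (178–378 to 1.67–7.38 CPM, log2 -5.86). Genes that are commonly used together as signs of alternative activation thus went in opposite directions in the same libraries. Cd209a is also counted below among the dendritic cell markers, most of which fell. The part of such cells in these falls was not tested.

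Of 29 wound healing genes, 15 rose and 8 fell (median 0.95; 14 and 10 with library totals only). Thbs1, which encodes thrombospondin 1, a matrix protein that activates TGF-beta, was at 1201, 901, 3974 and 1114 CPM in normal muscle and 38921, 32136, 32437 and 31794 CPM after injury (log2 change 4.23, SE 0.51, edgeR adjusted p = 2.21e-06; 4.99 without normal library 3, the highest of its group). The fibronectin gene Fn1 rose from 1089.9, 1401, 2233 and 1543 to 8533, 6997, 9804 and 9155 CPM (log2 change 2.46, SE 0.22, edgeR adjusted p = 8.86e-08), and Tgfbi, a matrix protein induced by TGF-beta, from 827–1047 to 3372–3995 CPM. Injured libraries were above all normal ones in these 3 genes. Igf1, the growth factor that promotes muscle growth, fell from 134, 121, 133 and 146 to 17.5, 14.9, 25.6 and 22.96 CPM (log2 change -2.72, SE 0.26, edgeR adjusted p = 1.62e-07). Among 17 matrix proteases and inhibitors, 7 rose and 6 fell, or 6 and 6 with library totals only, where the median turned from 0.56 to -0.03. Mmp14, a membrane-bound collagenase, rose to 758, 939, 513 and 480.5 CPM from 51.8–74.1 CPM (log2 3.43), again with injured libraries 1 and 2 on top. The metalloproteinase gene Adam8 rose from 164–410.1 to 1924–2089.6 CPM, while Mmp2 (log2 -2.56) and the inhibitor gene Timp3 (20.9–39.7 to 2.02–2.85 CPM, log2 -3.71) fell.

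Of 24 growth factor genes, 10 rose and 9 fell, close to the share among all genes, or 6 and 11 with library totals only, where the median turned from 0.18 to -0.41. Inhba, whose product forms activin A, was at 2.26, 3.77, 3.46 and 3.40 CPM in normal and 157, 157, 109 and 142 CPM in CTX-injected muscle (log2 change 5.45, SE 0.32, edgeR adjusted p = 1.69e-09). Ereg, a ligand of the EGF receptor, rose from 0.694–1.65 to 18.7–29.0 CPM (log2 4.35). Grn, progranulin, was the highest in CPM (1317–1554 to 2554–2857 CPM, log2 0.86, and 0.25 and no longer called with library totals only). Bmp2 fell from 72.6–130.0 to 5.55–8.57 CPM (log2 -3.63) alongside Igf1. Of 23 integrins and podosome genes, 14 rose and 7 fell (9 and 8 with library totals only). Itgam and Itgb2, the chains of the adhesion and complement receptor CD11b/CD18, rose from 543–681 to 2278–2679 CPM and from 457–614 to 2211–2267 CPM, and the vitronectin receptor gene Itgav from 70.4–115 to 297–408 CPM. Itgax, the CD11c chain, fell from 136–256 to 37.2–59.5 CPM (log2 -1.91), as did Itga9 (log2 -1.36).

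Glul fell, and the glutamate and cystine exchanger gene Slc7a11 rose. Of 29 glutamine and glutamate genes, 19 rose and 3 fell (median 0.62), or 9 and 6 with library totals only (median 0.02). Glul, glutamine synthetase, was at 95.9, 102, 106 and 111 CPM in normal muscle and 62.6, 68.7, 70.03 and 62.2 CPM after injury, lower in every injured library (log2 change -0.66, SE 0.11, edgeR adjusted p = 6.90e-05). Slc7a11, the transporter that exchanges glutamate for cystine, went from 14.98, 11.3, 47.5 and 32.9 to 1108, 940.0, 735 and 816 CPM (log2 change 5.08, SE 0.57, edgeR adjusted p = 9.21e-07). It was the largest rise of the list. The partner chain gene Slc3a2 rose from 199.5–438 to 827–1006 CPM and the large amino acid carrier gene Slc7a5 from 33.7–46.1 to 98.4–143 CPM. Nadsyn1, which uses glutamine to make NAD, was at 5.76–10.2 and 3.74–5.37 CPM and fell (log2 -0.71). In WT the changes of Glul, Slc7a11 and Slc7a5 were -0.70, 5.13 and 1.74. No member of this list reached an unadjusted p under 0.05 for a difference between the GLUD1 KO and WT responses.

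Of 12 arginine and polyamine genes, 11 rose and 0 fell (median 2.11; 10 and 1 with library totals only), next to 33.3% of all genes. Besides Arg1, the ornithine decarboxylase gene Odc1, which makes the first polyamine from the ornithine that arginase releases, rose from 60.9, 43.6, 116 and 96.3 to 1146, 1162, 1157 and 959 CPM (log2 change 3.80, SE 0.34, edgeR adjusted p = 8.76e-08). Its groups did not overlap.

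Of 17 glycolysis genes, 13 rose and 3 fell (median 1.59; 11 and 3 with library totals only). Pgk1, a kinase of the pay-off phase, went from 46.9, 48.6, 60.8 and 39.6 to 319.8, 351, 284 and 255 CPM (log2 change 2.63, SE 0.16, edgeR adjusted p = 2.20e-09), and Ldha, the lactate dehydrogenase chain, from 322, 370.1, 374 and 308 to 1772, 1977, 1518 and 1469 CPM (log2 change 2.29, SE 0.14, edgeR adjusted p = 2.07e-09). Pkm, pyruvate kinase, was the highest in CPM (427–732 to 2992–3616 CPM). All injured libraries were above all normal ones in these 3 genes. Falls were seen in the muscle-type phosphofructokinase gene Pfkm (4.98–8.99 to 0.634–2.81 CPM, log2 -2.20) and in Pfkfb3 (94.9–209 and 75.1–108 CPM, log2 -0.72). The groups of Pfkfb3 overlapped and its call was lost when normal library 3 or 5 or any single injured library other than 2 was left out. Of 18 hypoxia targets, 13 rose and 2 fell (8 and 4 with library totals only). Among them, the lipid droplet gene Plin2 rose from 373, 328, 689 and 455 to 2197, 2246, 2140.4 and 2040.2 CPM (log2 change 2.23, SE 0.22, edgeR adjusted p = 3.08e-07), the oxidative folding gene Ero1l from 33.9–43.5 to 167–236 CPM and the mitochondrial gene Higd1a from 10.9–12.5 to 24.3–28.4 CPM. The vasodilator peptide gene Adm (log2 -2.65) and the carbonic anhydrase gene Car9 (log2 -0.85), both under 10 CPM, fell.

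For both lists, the promoter windows of all tested members were searched for the core of the hypoxia response element, ACGTG, which reads CACGT on the other strand and can overlap itself within the palindrome CACGTG. In the 250 bases before the RefSeq transcription starts (GRCm38.p6), it was found in 13 of 27 windows of the 17 glycolysis genes (48.1%) and in 11 of 21 windows of 15 matched hypoxia genes (52.4%), against 16.6% of all 32851 windows. Genes can have several windows. Pgk1 and Ldha are shown because they are the 2 glycolysis genes of smallest p in the rising direction, with each match in capitals and the strand of the gene read 5′ to 3′. The window of Pgk1 is chrX:106186850-106187099 (plus strand) and that of Ldha is chr7:46845554-46845803 (plus strand), upstream of the first of its 2 RefSeq starts. The window of the other Ldha start held no match and is not shown.
Pgk1: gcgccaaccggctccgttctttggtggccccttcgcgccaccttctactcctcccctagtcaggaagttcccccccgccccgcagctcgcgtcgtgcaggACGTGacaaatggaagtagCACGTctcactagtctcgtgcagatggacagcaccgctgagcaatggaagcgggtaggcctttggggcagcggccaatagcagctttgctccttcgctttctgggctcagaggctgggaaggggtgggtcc
Ldha: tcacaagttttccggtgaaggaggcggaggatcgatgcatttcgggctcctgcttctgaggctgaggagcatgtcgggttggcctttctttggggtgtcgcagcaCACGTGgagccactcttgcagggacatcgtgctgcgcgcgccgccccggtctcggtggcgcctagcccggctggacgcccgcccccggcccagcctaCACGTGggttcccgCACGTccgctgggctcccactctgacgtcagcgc
The match nearest to the start of Pgk1 begins 131 bases and that of Ldha 34 bases before it. Windows of Pfkm, Pfkfb3 and Car9, which fell, held the core too. The matches are a description of these letters, and binding by a factor was not measured.

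Of 22 TCA cycle genes, 14 rose and 4 fell, or 5 and 9 with library totals only. There the median turned from 0.58 to -0.03, which was 0.74 above the median of all genes. Mdh2, mitochondrial malate dehydrogenase, rose from 102–136 to 331–353 CPM and Dld, a shared chain of the 2-oxoglutarate and pyruvate dehydrogenases, from 50.7–65.9 to 113–123 CPM. The fumarase gene Fh1 (log2 -0.69) and the isocitrate dehydrogenase gene Idh2 (log2 -0.41) fell, while Irg1, which draws aconitate out of the cycle, was the extreme rise. Among 36 nuclear-encoded subunits of oxidative phosphorylation, 35 rose (median 1.005), of which 21 were called with library totals only and 1 fell. The ATP synthase gene Atp5b went from 604, 614, 635 and 458 to 1216, 1327, 1249.5 and 1237 CPM (log2 change 1.12, SE 0.11, edgeR adjusted p = 3.53e-07), the cytochrome oxidase gene Cox5b from 23.2–26.6 to 56.6–68.7 CPM and the cytochrome c1 gene Cyc1 from 57.1–64.7 to 126–141 CPM. Injured libraries lay above normal ones in each.

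Of 18 fatty acid oxidation genes, 8 rose and 3 fell, or 1 and 11 with library totals only, where the median turned from 0.22 to -0.39. The carnitine carrier gene Slc25a20 rose (log2 1.16), as did Etfa (log2 0.73), and Decr1 (log2 -1.03) and Acadm (log2 -0.60) fell. Cpt1a, the gatekeeper of mitochondrial import, stood at 106–169 and 109–129 CPM and was not called (log2 change -0.25, SE 0.12, edgeR adjusted p = 0.0747). It was called as a fall without normal library 5 (-0.38), without the female libraries (-0.37) and with library totals only (-0.85). A filter of at least 5 CPM in 4 libraries (-0.42) called it too, as did a fit with the replicate block (-0.43). Normal library 5 added nothing to the change in the block fit. Cholesterol synthesis genes split 8 up and 2 down of 19 (median 0.08), or 4 and 10 with library totals only (median -0.54), with the squalene epoxidase gene Sqle rising from 16.9–22.3 to 37.9–49.2 CPM. Dhcr7 (log2 -1.32) and Lss (log2 -1.02) fell. Pentose phosphate and one-carbon genes split 8 and 2 of 17, or 4 and 7 with library totals only, where the median turned from 0.31 to -0.31. Pgd, an NADPH-making step, rose from 142–207 to 429–575 CPM and the mitochondrial folate enzyme gene Mthfd2 from 24.1–34.4 to 57.1–101 CPM, and Taldo1, transaldolase, was the highest in CPM (200.5–321 to 542–709 CPM). The thymidylate synthase gene Tyms fell (log2 -1.57).

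Of 15 genes of lipid-associated macrophages, a state described in fat and plaque, 11 rose and 3 fell (median 1.63; 10 and 3 with library totals only). The fatty acid carrier gene Fabp5 rose from 53.02, 40.7, 36.2 and 61.1 to 453, 422, 482 and 423 CPM (log2 change 3.22, SE 0.17, edgeR adjusted p = 7.45e-10) and the galectin gene Lgals3 from 427–619 to 2733–2978 CPM. Apoe fell from 5709, 5665, 6105 and 6493 to 2057, 2244, 2290.5 and 2023 CPM (log2 change -1.48, SE 0.16, edgeR adjusted p = 6.86e-07) and the sterol exporter gene Abcg1 from 112–156 to 72.5–81.3 CPM. The related exporter gene Abca1 rose from 249.2–434 to 976–1205 CPM (log2 1.63). No library of either group crossed into the other in these 5 genes.

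Of 18 antioxidant genes of the NRF2 programme, 13 rose and 1 fell (median 1.27; 9 and 3 with library totals only). Prdx1, a peroxiredoxin, went from 270.2, 226, 351 and 211 to 1538, 1726, 1310.4 and 1381 CPM (log2 change 2.49, SE 0.25, edgeR adjusted p = 2.48e-07) and thioredoxin, Txn1, from 73.7, 69.4, 70.7 and 46.1 to 319.5, 343, 287 and 273 CPM (log2 change 2.23, SE 0.16, edgeR adjusted p = 8.25e-09). The member highest in CPM was Sqstm1, an autophagy receptor, at 713, 710.3, 1899.9 and 1302 and 5093, 5497, 4528 and 4383 CPM, with normal libraries 3 and 5 above 1 and 2. Catalase, Cat, fell (110.4–153 to 63.0–73.9 CPM, log2 -0.95). In the integrated stress response, 12 genes rose and 3 fell of 18 (10 and 6 with library totals only). Chac1, which degrades glutathione, was nearly silent in normal muscle at 0.209, 0.595, 1.28 and 0.472 CPM and reached 18.4, 15.96, 12.2 and 6.65 CPM (log2 change 4.37, SE 0.47, edgeR adjusted p = 6.03e-07). Slc7a11 and Slc7a5 belong here too. Atf3, the highest in CPM and an immediate early gene as well, fell from 1462, 1484, 1228 and 1470.5 to 448, 406, 395 and 338 CPM (log2 change -1.83, SE 0.13, edgeR adjusted p = 7.37e-09). Vldlr, a lipoprotein receptor, fell from 288 reads over the normal libraries (4.31, 3.74, 1.92 and 1.27 CPM) to 2 reads over the injured ones.

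The promoter windows of these genes were searched for the C/EBP-ATF response element TGATGNAA and the antioxidant response element TGACNNNGC, on both strands. The first was in 6 of 19 windows of 17 matched integrated stress response genes (31.6%) against 3.45% of all windows, and the second in 5 of 20 windows of 15 matched NRF2 genes (25%) against 10.2%. Chac1 and Slc7a11 are shown as the 2 integrated stress response genes with the largest rises, with matches in capitals. Prdx1 is shown as a gene that holds the second element, for which no match was found in Txn1, Sqstm1 or Cat. The windows are chr2:119350992-119351241 (plus strand), chr3:50443614-50443863 (minus strand) and chr4:116685349-116685598 (plus strand).
Chac1: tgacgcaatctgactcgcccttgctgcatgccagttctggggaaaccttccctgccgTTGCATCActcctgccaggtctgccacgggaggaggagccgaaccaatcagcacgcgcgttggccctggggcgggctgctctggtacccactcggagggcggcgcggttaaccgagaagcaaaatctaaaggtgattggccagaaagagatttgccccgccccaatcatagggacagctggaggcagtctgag
Slc7a11: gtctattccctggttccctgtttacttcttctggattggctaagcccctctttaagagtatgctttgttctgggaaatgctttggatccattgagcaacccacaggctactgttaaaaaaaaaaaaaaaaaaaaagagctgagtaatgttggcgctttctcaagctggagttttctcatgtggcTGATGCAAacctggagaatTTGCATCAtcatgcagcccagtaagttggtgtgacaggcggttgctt
Prdx1: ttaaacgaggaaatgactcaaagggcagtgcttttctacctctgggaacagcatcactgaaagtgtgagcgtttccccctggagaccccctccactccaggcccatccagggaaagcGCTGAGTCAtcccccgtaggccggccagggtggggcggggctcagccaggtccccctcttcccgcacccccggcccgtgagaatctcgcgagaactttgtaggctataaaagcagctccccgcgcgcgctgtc
Slc7a11 holds the first element at 2 places within the last 66 bases before its start, once on each strand, and Chac1 once. Atf3 and Vldlr, which fell, held the first element as well. Whether a factor binds these sites was not measured.

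Of 18 heme and iron genes, 7 rose and 7 fell (5 and 9 with library totals only), near the shares of all genes (33.3% and 40.2%). Both ferritin chains, which store iron, rose: Fth1 went from 3645, 2912, 5123 and 3193 to 18923, 22283, 15546 and 14974 CPM (log2 change 2.27, SE 0.21, edgeR adjusted p = 1.06e-07) and Ftl1 from 3328, 3032, 4017 and 3645 to 10665, 11979, 9979.6 and 10216 CPM (log2 change 1.61, SE 0.14, edgeR adjusted p = 6.89e-08). Trf, the iron carrier transferrin, fell from 1119, 1147, 1201 and 1153 to 215, 219, 202 and 216 CPM (log2 change -2.44, SE 0.17, edgeR adjusted p = 9.04e-09). The biliverdin reductase gene Blvra rose (log2 1.28), and Hpgd, listed here although its known role is in prostaglandin breakdown, fell.

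Genes of protein folding, synthesis and breakdown rose nearly as whole families, by amounts that are small for some of them. All 26 proteasome genes tested rose, also with library totals only, with a median of 1.58 (0.96 with that scaling). The catalytic subunit gene Psmb6 went from 68.2, 65.6, 68.7 and 63.0 to 309.6, 344, 287 and 269.5 CPM (log2 change 2.19, SE 0.11, edgeR adjusted p = 4.92e-10), Psmc5 from 55.9–63.7 to 164–184 CPM and Psmd2 from 134–177 to 402–458 CPM. Of 20 genes of the unfolded protein response, 18 rose and 1 fell (15 and 2 with library totals only). The disulfide isomerase gene Pdia6 went from 282, 239.7, 263 and 255 to 1090.0, 1198, 997 and 1020.3 CPM (log2 change 2.05, SE 0.11, edgeR adjusted p = 9.21e-10) and Creld2 from 27.9–36.5 to 137–172 CPM. The chaperone gene Hspa5 was the highest in CPM (1249.9–2347 to 2672–3528 CPM, log2 0.89), and Herpud1, of endoplasmic reticulum degradation, fell (log2 -0.54). Aminoacyl-tRNA synthetase genes rose in 19 of 20 cases, with Aars (65.0–86.2 to 212–257 CPM), Hars (31.3–36.7 to 59.3–64.9 CPM) and Nars (103–141 to 225–271 CPM) as examples and Vars as the exception (log2 -0.57), and in 7 cases with library totals only. Ribosomal protein genes rose in all 32 cases with TMM scaling and in 5 with library totals only, where Rpl4 turned from 0.41 to -0.20. Rpl10 was at 98.2–117 and 189–216 CPM. Mitochondrial ribosome genes rose in 20 of 24 cases, led by Mrpl20 (log2 1.71) and Mrps18a (log2 1.08), and in 5 with library totals only, where Mrpl4 turned from 0.60 to -0.0084.

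The proton pump that acidifies lysosomes and many enzymes inside them rose. Of 15 V-ATPase genes 14 rose and 0 fell, and 12 rose with library totals only. Atp6v1e1 went from 121, 124, 164 and 142 to 468, 497, 456 and 416 CPM (log2 change 1.74, SE 0.14, edgeR adjusted p = 2.50e-08), Atp6v1g1 from 46.0–54.9 to 115–142 CPM and Atp6v1b2 from 246–357 to 708–728 CPM. Of 21 lysosomal hydrolase genes, 14 rose and 1 fell (7 and 7 with library totals only). Gusb, beta-glucuronidase, rose (log2 0.97), and Psap went from 4628–5886 to 8588–9572 CPM. Of 16 cathepsin and cystatin genes, 9 rose and 4 fell (7 and 5 with library totals only). Ctsl, a cysteine protease, rose from 246, 217, 278 and 288 to 2847, 2625, 4756 and 4322 CPM (log2 change 3.82, SE 0.25, edgeR adjusted p = 4.13e-09), and here injured libraries 3 and 4 were the higher pair. Ctsb, the highest in CPM, rose from 3291–5009 to 13078–14209 CPM, as did the inhibitor gene Cstb (log2 3.32). Ctsf fell from 38.3, 52.1, 47.9 and 40.1 to 0.403, 1.02, 1.23 and 1.56 CPM (log2 change -5.39, SE 0.27, edgeR adjusted p = 6.14e-10), and Ctso fell slightly (log2 -0.65). Of 24 autophagy genes 14 rose and 4 fell, or 4 and 10 with library totals only, where the median turned from 0.48 to -0.12. Gabarap rose from 239–277 to 620.0–754 CPM and Atg13 from 33.6–45.3 to 83.0–97.9 CPM, while Ulk2 (log2 -0.96) and Atg16l1 (log2 -0.63) fell.

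**Figure D3:**
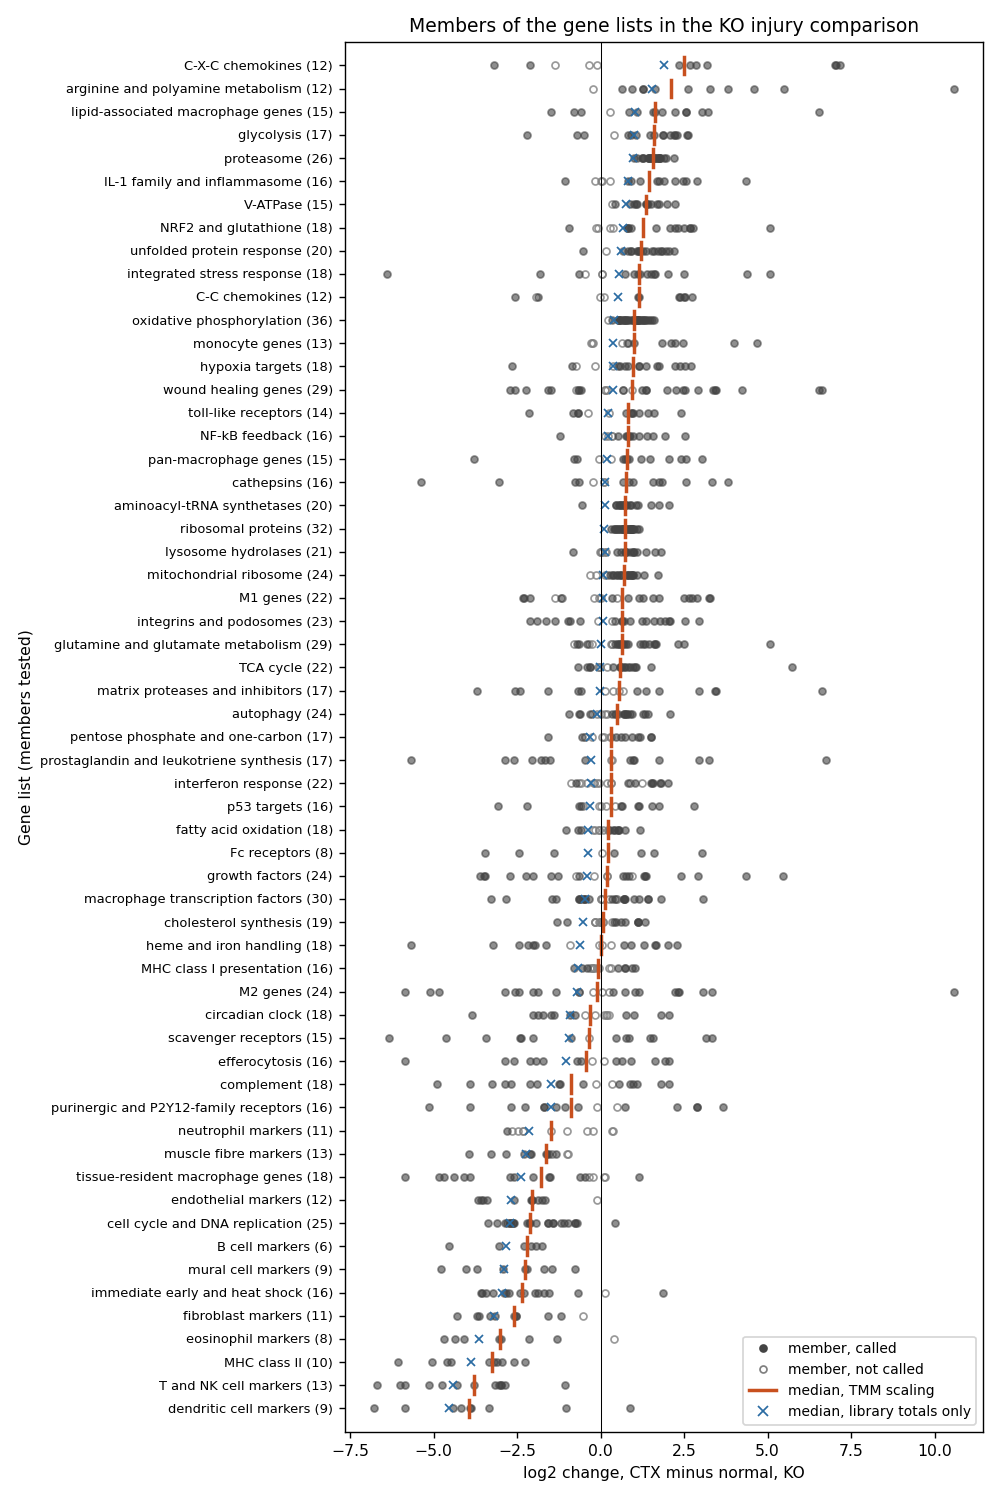
Log2 change with injury in GLUD1 KO macrophages for each tested member (points, filled where called by edgeR) of the gene lists with at least 5 tested members, ordered by their median under TMM scaling (orange bars); crosses give the median with library totals only. Chemokine, arginine and glycolysis lists lie to the right, MHC class II, T and NK cell and dendritic cell lists to the left, and the crosses sit about 0.6 to the left of the bars.

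Immediate early and heat shock genes, which cells switch on within minutes of stress and also during tissue dissociation, fell in 14 of 16 cases and rose in 1 (median -2.36; 15 and 1 with library totals only). Jun went from 3146, 3668, 2415 and 3960.4 to 426, 475, 439 and 447 CPM (log2 change -2.88, SE 0.17, edgeR adjusted p = 1.80e-09) and the nuclear receptor gene Nr4a1 from 1444, 1444, 1409 and 1603 to 238, 285, 309 and 269 CPM (log2 change -2.42, SE 0.14, edgeR adjusted p = 1.69e-09). Junb was at 2117–3642 and 1735–1932 CPM (log2 -0.67), and Ier3, an early gene that limits cell death, rose from 221–438 to 1095–1235 CPM. Whether the handling of injured and normal tissue contributed to these values was not tested. Clock genes split 4 up and 8 down of 18 (2 and 12 with library totals only). Bhlhe40 (142–285 to 695–750.3 CPM) and the repressor gene Cry1 (22.1–50.2 to 121–153 CPM) rose, and the output gene Dbp (log2 -2.04) and Per1 (86.2–174 to 40.7–53.1 CPM, log2 -1.40) fell. The E-box CACGTG was in 6 of 21 promoter windows of 16 matched clock genes (28.6%), Cry1 and Per1 among them, against 6.02% of all windows. At what hour muscles were taken is not stated by the labels. Targets of p53 split 7 up and 4 down of 16, or 5 and 6 with library totals only, where the median turned from 0.30 to -0.32. Mdm2, the ligase that degrades p53, rose from 88.3, 76.4, 203 and 153 to 949, 846, 953 and 897 CPM (log2 change 2.81, SE 0.30, edgeR adjusted p = 5.96e-07) and the cell death gene Bax from 64.3–76.8 to 216–265 CPM. The growth-arrest gene Btg2 fell from 1439.9, 1458, 823 and 1596 to 140.4, 176, 153 and 156 CPM (log2 change -3.09, SE 0.25, edgeR adjusted p = 2.80e-08) and Sesn1 from 51.0–108 to 16.8–22.5 CPM.

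Cell cycle and DNA replication genes fell in 24 of 25 cases (median -2.12; 24 fell and 0 rose with library totals only), against 40.2% of all genes. The replication helicase gene Mcm3 went from 57.0, 68.7, 65.4 and 47.9 to 28.1, 29.9, 29.9 and 32.4 CPM (log2 change -0.99, SE 0.12, edgeR adjusted p = 2.43e-06) and the transcription factor gene E2f1 from 26.7–33.2 to 16.6–20.0 CPM. Pcna, the polymerase clamp, was the only member that rose (52.1, 50.3, 57.0 and 48.5 to 72.9, 71.1, 70.4 and 64.9 CPM, log2 0.43), and with library totals only it turned to -0.18. The cell cycle homology region TTTGAA, searched on both strands, was in 7 of 22 promoter windows of 21 matched genes (31.8%) against 16% of all windows.

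Genes of tissue-resident macrophages fell in 13 of 18 cases (median -1.79) and rose in 1, or in 16 and 0 with library totals only. The ficolin gene Fcna went from 151, 164, 187 and 234 to 5.64, 2.55, 7.27 and 9.87 CPM (log2 change -4.85, SE 0.40, edgeR adjusted p = 4.12e-08) and the lectin gene Cd209f from 165, 169.7, 124 and 215 to 8.29, 6.85, 8.73 and 8.001 CPM (log2 change -4.40, SE 0.37, edgeR adjusted p = 4.38e-08). F13a1, the coagulation factor XIII chain and the member highest in CPM, overlapped between the groups and was not called, at 1773, 2301, 2550.1 and 1726 and 2365, 2163, 2289 and 2298 CPM (0.13, or -0.48 with library totals only). Ccl24 rose, from 89.3, 107, 105 and 234 to 498, 148, 271 and 275 CPM (log2 1.15), with overlapping groups, and lost its call with library totals only (0.55). Of 13 monocyte genes, 8 rose and 0 fell (6 and 3 with library totals only). The coagulation factor X gene F10 went from 35.6, 31.2, 66.1 and 44.3 to 785, 812, 610.4 and 611 CPM (log2 change 3.99, SE 0.28, edgeR adjusted p = 7.40e-09), and Fn1 belongs to this list too. Of 15 pan-macrophage genes 10 rose and 3 fell (6 and 4 with library totals only). Fcgr1, the high-affinity IgG receptor, went from 50.5, 48.7, 39.0 and 46.5 to 378, 376, 389 and 373 CPM (log2 change 3.04, SE 0.13, edgeR adjusted p = 1.60e-10), and the fractalkine receptor gene Cx3cr1 from 199, 225, 163 and 139 to 12.3, 13.7, 15.2 and 11.1 CPM (log2 change -3.80, SE 0.21, edgeR adjusted p = 1.20e-09). Neither of the 2 genes overlapped between the groups.

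Of 30 macrophage transcription factor genes, 12 rose and 11 fell, about the shares of all genes, or 6 and 15 with library totals only, where the median turned from 0.13 to -0.46. Cebpb, a factor of inflammatory and repair genes, was the highest in CPM (1329–2365 to 3773–5052 CPM, log2 1.41). Tfec rose (log2 1.42), Klf2 fell from 643–1234 to 121–166 CPM (log2 -2.85), and the nuclear receptor gene Rxra fell from 98.7–138 to 39.9–42.3 CPM.

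MHC class II genes, which present antigen to CD4 T cells, all fell, 10 of 10, also with library totals only (median -3.27). Cd74 went from 13492, 10242, 11085 and 12295 to 1202, 1675, 1390.2 and 1763 CPM (log2 change -2.97, SE 0.17, edgeR adjusted p = 1.22e-09) and H2-Eb1 from 3731, 2575, 2909.7 and 2990.0 to 233, 334, 264 and 362 CPM (log2 change -3.35, SE 0.18, edgeR adjusted p = 9.87e-10), and H2-Ab1 from 4632–6415 to 479.9–695 CPM. The injured libraries were far below the normal ones in these 3 genes. Class I presentation genes gave 5 rises and 3 falls of 16, and 1 and 10 with library totals only. B2m, the common light chain, was at 1777–2538 and 2221–2687 CPM and not called (0.24, -0.37 with library totals only). The proteasome activator and immunoproteasome genes Psme2 (log2 0.94) and Psmb10 (log2 1.03) rose, and H2-M3 (log2 -0.43) and H2-Q4 (log2 -0.81) fell. H2-Q4 has near-identical neighbours that can share reads, and its call was lost without normal library 5 or injured library 3 or 4.

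Receptors for opsonised and dying cells moved both ways, in a comparison where 33.3% of all genes rose and 40.2% fell. Of 8 Fc receptor genes 4 rose and 3 fell, or 3 and 4 with library totals only, where the median turned from 0.22 to -0.39. The signalling chain gene Fcer1g rose from 367–495 to 942–1162 CPM along with Fcgr1, and the neonatal receptor gene Fcgrt, which recycles IgG, fell from 288–407 to 40.1–84.6 CPM (log2 -2.44), as did the cytosolic antibody receptor gene Trim21 (log2 -1.40). Scavenger receptors split 7 and 7 of 15 (4 and 8 with library totals only). The oxidised lipoprotein receptor gene Olr1 rose from 31.1, 20.3, 45.8 and 43.8 to 322, 291, 334 and 296 CPM (log2 change 3.14, SE 0.26, edgeR adjusted p = 4.18e-08) and Cd68 from 505–675 to 1550.0–1706 CPM, while Stab2, a hyaluronan receptor, fell from 49.7, 18.1, 24.3 and 27.6 to 0.173, 0.792, 0.168 and 0.312 CPM (log2 change -6.35, SE 0.54, edgeR adjusted p = 5.53e-08; -7.05 without injured library 2) and Colec12 from 81.5–116 to 12.2–27.2 CPM. Efferocytosis genes, for the uptake of dying cells, split 6 and 8 of 16 (3 and 9 with library totals only). The receptor kinase gene Axl fell from 505, 392, 399 and 272 to 36.5, 57.7, 48.5 and 73.4 CPM (log2 change -2.86, SE 0.26, edgeR adjusted p = 1.17e-07) as did the bridging protein gene Mfge8 (log2 -1.95). Cd300lf, a phosphatidylserine receptor, rose from 22.6–40.8 to 108–134 CPM.

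Of 18 complement genes, 6 rose and 10 fell (2 and 10 with library totals only). The anaphylatoxin receptor gene C5ar1 rose from 349, 403, 694 and 559.5 to 1682, 1824, 1770.5 and 1699 CPM (log2 change 1.80, SE 0.20, edgeR adjusted p = 8.75e-07), and components of the classical pathway fell, C2 from 21.8–29.8 to 0.392–1.13 CPM (log2 -4.91) and C4b from 301, 417, 274 and 518 to 39.0, 34.2, 43.0 and 42.9 CPM (log2 change -3.25, SE 0.28, edgeR adjusted p = 6.99e-08). Receptors and enzymes of extracellular nucleotides split 5 and 9 of 16 (4 and 10 with library totals only). Nt5e, which makes adenosine from AMP, rose from 3.89, 6.55, 5.50 and 1.51 to 51.3, 46.1, 70.4 and 58.1 CPM (log2 change 3.68, SE 0.46, edgeR adjusted p = 3.10e-06) and the ATP receptor gene P2ry2 from 8.93–23.3 to 100.2–111 CPM. The receptor genes Gpr34 (92.1, 107, 63.6 and 86.7 to 1.96, 1.81, 2.85 and 3.12 CPM, log2 change -5.16, SE 0.24, edgeR adjusted p = 3.51e-10) and P2ry13 (52.0–115 to 4.10–7.53 CPM) fell. Entpd1, which feeds AMP to Nt5e, was the highest in CPM and was not called (log2 change 0.47, SE 0.22, edgeR adjusted p = 0.0601; called without normal library 3, 0.66, or injured library 2, 0.55).

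Transcripts of other cell types, which a sort can carry over, were lower in most lists after injury. Their summed level over all 13 T and NK cell markers was 146 to 351 CPM before and 6.05 to 15.5 CPM after injury, and all 13 fell. Cd4, the highest of them in CPM and a gene that some macrophages also express, went from 239.9, 152, 146 and 95.1 to 0.921, 6.45, 0.336 and 3.12 CPM (log2 change -5.86, SE 0.75, edgeR adjusted p = 3.68e-06; -6.73 without injured library 2), and Cd2 from 14.98–30.2 to 2.13–3.74 CPM. Dendritic cell markers summed to 403 to 668 and 32.0 to 36.1 CPM. Of these, 8 of 9 fell, Zbtb46 (log2 -3.36) and Cd209a (log2 -5.86) among them, and Xcr1 rose (5.43–14.3 to 14.9–23.2 CPM, log2 0.86). Cd209a, also counted as an M2 gene, was the highest of the list in CPM in normal muscle. B cell markers summed to 48.4 to 105 and 8.11 to 19.1 CPM, and all 6 tested fell, such as Cd22 (log2 -2.09) and Cd79b (log2 -3.06), with Pax5 at 0 in every injured library. No T and NK or dendritic cell marker was at 0 throughout a group. These lists moved with MHC class II and its activator Ciita, which B cells and dendritic cells also express, and their part in that result was not tested.

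Endothelial markers summed to 215 to 314 CPM without and 75.1 to 95.9 CPM with injury, with 11 of 12 falling, for example Pecam1 (52.9–86.2 to 12.3–23.3 CPM), Tie1 (log2 -3.40) and Eng (log2 -1.67). Fibroblast markers summed to 226 to 964 and 86.2 to 102 CPM, with 10 of 11 falling. The collagen gene Col1a1 was at 128, 177, 347 and 51.5 and 15.6, 12.7, 14.8 and 10.9 CPM (log2 change -3.70, SE 0.47, edgeR adjusted p = 3.55e-06) and Col6a1 at 8.87–21.0 and 1.08–2.91 CPM. Normal library 5 was the lowest and library 3 the highest of its group for Col1a1. All 9 mural cell markers fell, such as Acta2 (log2 -2.20), Myh11 (log2 -4.77) and Rgs5 (log2 -3.70), and their sum was 64.5 to 137 CPM without and 17.5 to 20.1 CPM with injury. No endothelial, fibroblast or mural marker was at 0 throughout either group. These stromal lists moved with Mmp2, Timp3 and Cxcl12, and their part in those falls was not tested. Muscle fibre markers were low in both groups (19.2 to 60.9 and 5.66 to 8.66 CPM summed), with 10 of 13 falling, such as Ttn (log2 -3.95) and Tnni2 (log2 -1.64). Of the 8 satellite cell and myoblast markers only Des (log2 -2.92) and Musk (0.0418–0.430 to 0.792–2.13 CPM, log2 2.88; 3.56 without normal library 2) passed the filter, and Pax7, Myf5, Myog and Cdh15 were at 0 in every injured library.

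Granulocyte transcripts varied from library to library. Neutrophil markers summed to 353 to 6880 CPM without and 432 to 1350 CPM with injury and overlapped. The granule gene Ngp was at 598, 2049, 584 and 65.6 and 174, 120.0, 0.280 and 296 CPM and Ltf at 415, 1585, 427 and 49.8 and 118, 71.5, 1.96 and 202 CPM, with normal library 2 the highest and injured library 3 the lowest, and neither was called (log2 change -2.48, SE 1.38, edgeR adjusted p = 0.114; log2 change -2.66, SE 1.21, edgeR adjusted p = 0.0574). Ltf was called without normal library 5 (-3.05) or injured library 4 (-3.28), and stood at -1.61 without normal library 2. Camp and S100a8 had the widest range within the normal libraries along with Mpo, at 8.96–380.1 and 23.8–854 CPM, and were not called either, although Camp was called without normal library 5 (-2.75). Mpo was the single call of the list (67.6, 298, 88.0 and 3.77 to 25.1, 20.9, 0.392 and 19.0 CPM, log2 change -2.81, SE 1.13, edgeR adjusted p = 0.0341), and it was lost when normal library 2 or injured library 2, 3 or 4 was left out. Eosinophil markers fell in 7 of 8 cases, with sums of 123 to 625 and 47.2 to 114 CPM. Prg2, the major basic protein gene, overlapped between the groups (159, 384, 118 and 24.1 and 24.2, 16.98, 2.41 and 42.5 CPM, log2 -2.99), and its call was lost without normal library 2 or injured library 1, 2 or 3. Ear2 (3.63–7.57 to 0.260–0.447 CPM, log2 -4.10) and Il5ra (log2 -2.14) fell. The groups of Il5ra overlapped through normal library 3, at 0.811 CPM against 1.45–2.18 CPM in injured muscle. Of the erythroid list Alas2 was at 0.519–11.5 and 6.43–10.4 CPM and not called (0.89; 1.81 and called without normal library 2), the haemoglobin genes Hba-a1, Hba-a2, Hbb-bs and Hbb-bt being at 0 in all 8 libraries.

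**Figure D4:**
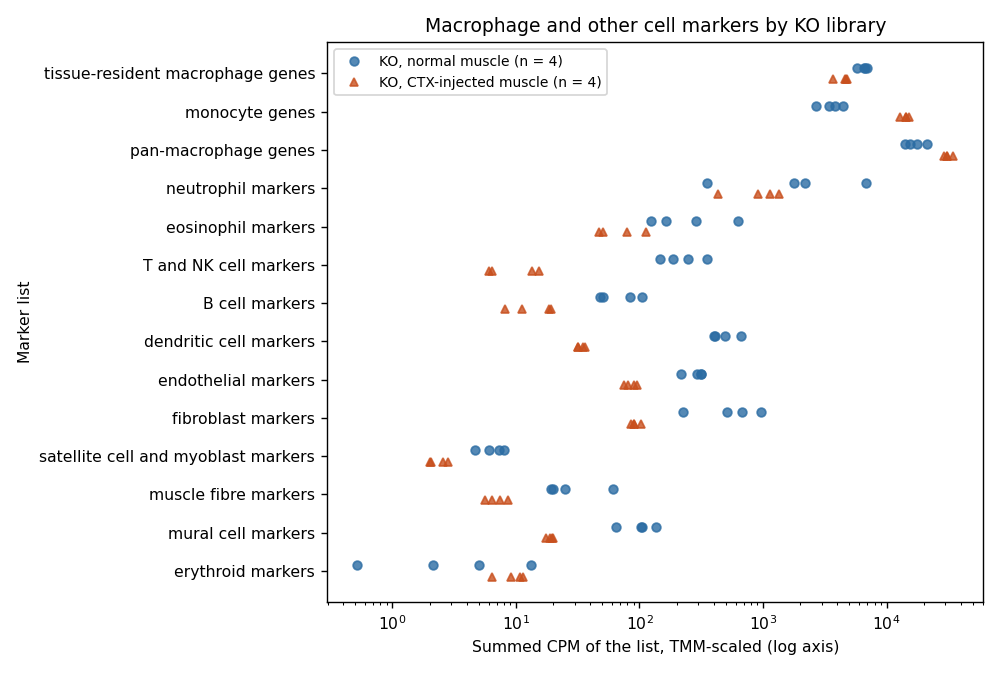
Summed CPM of each cell marker list (y) in each GLUD1 KO library on a log axis (x), circles for normal and triangles for CTX-injected muscle (n = 4 each). Monocyte and pan-macrophage sums rise with injury without overlap, lymphocyte, dendritic, endothelial, fibroblast and mural sums fall, and neutrophil sums overlap.

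GLUD1 KO macrophages shared most of their injury response with WT macrophages. The WT comparison called 4551 genes up (33.3%) and 5378 down (39.4%). Of the genes that rose in GLUD1 KO, 4216 rose in WT as well (92.7% of the GLUD1 KO and 92.6% of the WT rises), and 4895 fell in both (89.1% and 91%). The changes of all 13649 genes had a Pearson r of 0.93 across genes, which are not independent replicates, and the 2 comparisons share no library. Only Thbs4 and Xdh were called in opposite directions. A test of the difference between the 2 responses called no gene by edgeR (adjusted p under 0.05), with 646 genes (4.73%) at an unadjusted p under 0.05, and 48 genes by DESeq2. Leaving out single libraries gave 0 to 2 calls: Dcn and Igfbp7 without GLUD1 KO normal library 5, and 2 genes including Xdh without GLUD1 KO injured library 2. Without the 3 female libraries, 1 of them in GLUD1 KO normal and 2 in WT normal muscle, edgeR called Dcn alone.

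**Figure D5:**
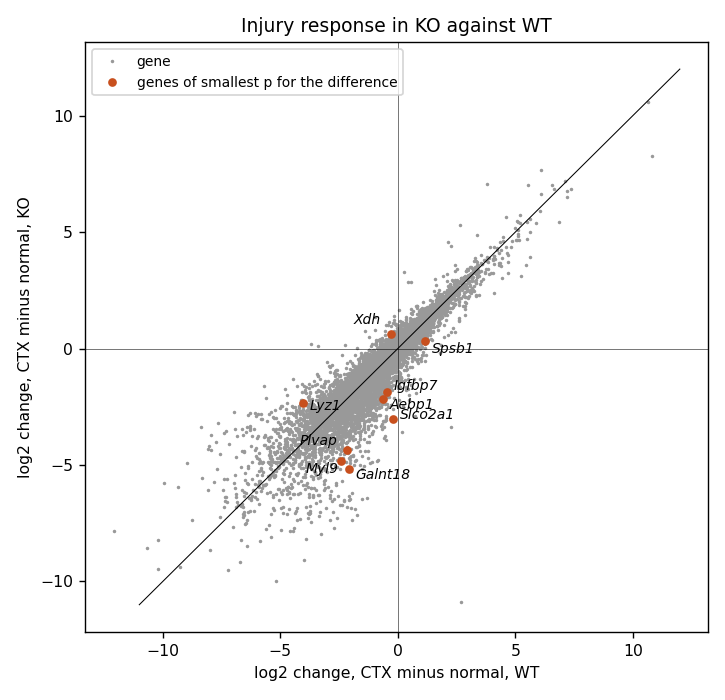
Log2 change with injury in GLUD1 KO (y) against WT macrophages (x) for 13649 genes, with the line of equal change. Of the 10 genes of smallest p for the difference, 9 are marked in orange; most of them lie below the line, where the fall was larger or the rise smaller in GLUD1 KO.

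Of the 10 genes of smallest p for the difference, 9 are described here. None passed the threshold by edgeR, and DESeq2 called all 9, at adjusted p-values from 6.77e-05 for Xdh to 0.00458 for Spsb1. Xdh, which encodes xanthine oxidoreductase of purine breakdown, was at 199.8, 228, 196 and 208 CPM in normal and 322, 268, 351 and 357 CPM in CTX-injected muscle of GLUD1 KO mice (log2 change 0.64, SE 0.11, edgeR adjusted p = 9.89e-05), and its change was -0.29 in WT, where it stood at 241, 313, 284 and 285 and 209, 219, 229 and 259.9 CPM. The difference of the changes was 0.94 (SE 0.16, edgeR adjusted p = 0.0818). GLUD1 KO injured libraries were above their normal ones without overlap, although with library totals only the GLUD1 KO change was 0.03 and not called. Lyz1, a lysozyme gene that shares near-identical sequence with Lyz2, fell in GLUD1 KO (968–1737 to 249.1–286 CPM, log2 -2.35) and in WT (907–1393 to 52.7–88.8 CPM, log2 -4.05), with a difference of 1.70 (SE 0.29, edgeR adjusted p = 0.0818). Spsb1, an adaptor of a ubiquitin ligase, changed by 0.33 in GLUD1 KO (11.2–15.3 to 14.8–18.4 CPM) and by 1.16 in WT, and its GLUD1 KO change turned to -0.285 with library totals only. The Spsb1 call was lost without normal library 2 or injured library 2. A further 6 genes had the more negative change in GLUD1 KO: Igfbp7 (log2 -1.87 against -0.48), Slco2a1 (-3.005 against -0.19), Plvap (-4.36 against -2.17), Galnt18 (-5.19 against -2.09), Myl9 (-4.85 against -2.41) and Aebp1 (-2.19 against -0.65). Plvap is an endothelial and Myl9 a smooth muscle gene, Igfbp7 a secreted protein of vessels, and Aebp1 a collagen-binding protein of fibroblasts.

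Markers of vessels and connective tissue had low p-values for the difference as well. An unadjusted p under 0.05 for the difference was reached by 9 of 12 endothelial, 8 of 9 mural cell and 6 of 11 fibroblast markers, against 4.73% of all genes. Dcn, a fibroblast proteoglycan gene, changed by -2.54 in GLUD1 KO (59.3, 70.2, 60.8 and 25.7 to 10.1, 8.94, 9.28 and 8.78 CPM) and -1.15 in WT, and the lower normal library 5 stood apart. Normal-muscle sums were 215 to 314 CPM in GLUD1 KO and 185 to 235 CPM in WT for the endothelial list, and 64.5 to 137 and 55.6 to 79.4 CPM for the mural list. After injury they were 75.1 to 95.9 and 85.1 to 99.0 CPM, and 17.5 to 20.1 and 22.2 to 30.4 CPM. Tissue-resident macrophage genes reached that p in 5 of 18 cases, and their sums were 5790 to 6980 CPM in GLUD1 KO and 7180 to 12300 CPM in WT normal muscle. The part of cells other than macrophages in these differences was not tested.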

How the data were processed

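The authors deposited read counts per gene symbol for 16 libraries of RNA from F4/80-positive cells, which the labels describe as made with the SMART-Seq V4 kit, a kit that does not mark strand, so antisense and overlapping genes cannot be told apart. The submitters' processing notes name FastQC 0.11.7, cutadapt 1.18, HISAT2 2.1.0, featureCounts, Subread 1.6.2 and mm10. The members and gene lists were chosen with earlier results of these data known. Of 24421 symbols, 5362 had no read, 13649 passed edgeR's filterByExpr and 23376 matched GENCODE M21, the source of positions and exon lengths.

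Counts of all 16 libraries were fitted with edgeR 4.0.16 (R 4.3.3; TMM, quasi-likelihood F test, 1 coefficient per group, Benjamini-Hochberg adjustment over all genes). The SE is the log2 change divided by the square root of F. The code was tested on simulated data. Alternatives were other scalings and filters, DESeq2 1.42.0, the 8 GLUD1 KO libraries alone, and leaving out libraries. Named were Glud1, the 10 genes with the largest rise and the 10 with the largest fall (called, groups not overlapping, log2 CPM of at least 5 in the higher group), per list the highest in CPM and the 2 called members of smallest p each way, the 10 genes highest per length, the 3 with the widest range within a group and the 10 of smallest p for the difference between genotypes. Adgre1, Xist, Thbs4 and the markers given as at 0 fall outside this rule and were named after their values were seen. Some genes that meet it are not reported here.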

Additional observations from a re-analysis of the deposited data

Results flagged for a closer look

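In 29 of the 492 sets of 4 GLUD1 KO libraries examined, 1 library lay far from the other 3, at 95% confidence by Dixon's ratio of gap to range. Chance alone gives about 1 in 20. Values are CPM, each followed by the range of the other 3 libraries of its group. CTX-injected library 1 was above the rest for Abca1 (1205, others 975.7 to 979.1) and Thbs1 (38921.0, others 31794.0 to 32437.0). CTX-injected library 1 was below the rest for Hars (59.26, others 64.68 to 64.94) and Nadsyn1 (3.744, others 5.247 to 5.37). CTX-injected library 2 was above the rest for E2f1 (19.98, others 16.59 to 17.09) and Psme2 (156.7, others 137.7 to 140.7). CTX-injected library 2 was below the rest for Ctso (38.38, others 42.08 to 42.4). CTX-injected library 3 was below the rest for Ptgs1 (6.152, others 8.524 to 8.83). CTX-injected library 4 was above the rest for Ccl17 (1.714, others 0.7359 to 0.8949), Cxcl9 (13.82, others 0.3915 to 0.7925) and Siglech (2.182, others 0.6152 to 0.7925). CTX-injected library 4 was below the rest for Il1rn (2645, others 2974 to 3034), Nars (225.2, others 267.6 to 270.9) and Odc1 (959, others 1146 to 1162). Normal library 1 was above the rest for Galnt18 (8.913, others 4.482 to 5.027) and H2-Ab1 (6415, others 4632 to 4811). Normal library 3 was above the rest for Cxcl3 (103.7, others 5.942 to 20.48), Entpd1 (235.9, others 146 to 157.8), Lgals3 (619.1, others 427.1 to 445.4) and Thbs1 (3974, others 900.7 to 1201). Normal library 3 was below the rest for Actb (8473, others 8970 to 9068) and Atf3 (1228, others 1462 to 1484). Normal library 5 was above the rest for Ccl24 (234.2, others 89.25 to 107.4) and Ccl9 (746.9, others 601.3 to 615.5). Normal library 5 was below the rest for Cox5b (23.21, others 26.12 to 26.63), Cyc1 (57.08, others 64.36 to 64.72), Mfge8 (32.93, others 43.52 to 45.04), Myh11 (10.43, others 20.04 to 21.34) and Txn1 (46.14, others 69.41 to 73.73).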

How the results depend on the processing

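Of the genes named, 213 of 246 kept their direction and their side of the threshold under every alternative. The scaling mattered most. With library totals only, 1920 genes rose and 8398 fell with injury in GLUD1 KO, and 1944 and 8349 in WT. That scaling turned 7 named changes around: B2m to -0.37, F13a1 to -0.48, Glud1 to -0.11, Mrpl4 to -0.0084, Pcna to -0.18, Rpl4 to -0.20 and Spsb1 to -0.285. The calls of Ccl24, Etfa, Grn, Hspa5, Irf7, Psap, Psme2, Xcr1 and Xdh were lost with it. Without each GLUD1 KO library in turn, 4354 to 4484 genes rose and 5238 to 5492 fell. For WT the ranges were 4344 to 4459 and 5137 to 5407. The difference between the genotypes called 48 genes by DESeq2, 1 without the female libraries, which is Dcn (1 GLUD1 KO and 2 WT normal libraries are female), and 0 to 2 when 1 of the 16 libraries was left out. The lists were also recounted without the female libraries, an alternative chosen after seeing the data. The cause of these changes was not tested. Depth limits what can be said of the 92 falling genes with no read in any injured library, whose size of change these counts do not fix.

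Replicate numbers 1, 2 and 3 occur in both GLUD1 KO groups, but same-numbered libraries did not deviate together (correlations of -0.07, 0.06 and -0.03 over 8332 genes), so the numbers were not taken as pairs. A fit with the replicate block called 3999 genes up and 4475 down. That fit was given the 8 GLUD1 KO libraries alone. In each group, the library not numbered 1, 2 or 3 had a block of its own. It therefore added nothing to the estimated change, which rested on libraries 1, 2 and 3 of each group. In that fit, Car9, H2-Q4, Il5ra, Junb, Nadsyn1, Pfkfb3, Rpl4 and Spsb1 were not called, and Camp, Cpt1a, Ltf, Ngp and S100a8 were. Whether the block or the loss of the unshared libraries moved these calls was not tested.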
